A study of Mus musculus with 6 samples.

Results

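The 9 genes described here encode proteins of the tight junctions that seal brain vessels, namely *Cldn5*, *Cldn12*, *Ocln*, *Marveld2*, *Tjp1*, *F11r*, *Jam2*, *Jam3* and *Esam*. They were chosen by name from the 33460 genes in the expression files, with symbols taken from the NCBIM37 annotation, and all 9 were among the 14801 genes that reached an FPKM of 1 in 3 or more of the 6 libraries and were tested. Each of the 9 reached it in all 6. FPKM counts sequenced fragments per length of transcript and per depth of the library, so levels of different genes can be set side by side. RNA came from brains at postnatal day 6. The mice were of the *Pdgfrb-eGFP/NG2-DsRed* line, in which green and red fluorescent proteins are driven by the regulatory regions of *Pdgfrb* and of *Cspg4* (NG2). Both groups carry both reporters. One group was 3 samples of FACS sorted cells positive for both reporters, called mural cells (pericytes and vascular smooth muscle cells), and the other was 3 samples of microvascular fragments pulled down with CD31 beads, which hold endothelial cells (EC) together with the mural cells attached to them. Each of the 3 brains gave material to both groups. Per the study, each reporter on its own also marks cells that are not mural (neuronal cells near the ventricles for *Pdgfrb-eGFP*, oligodendrocyte precursors for NG2). In the study these other cells appeared not to overlap, and it concludes that double positive cells likely include no other brain cell type. Some vascular smooth muscle cells had little or no NG2-DsRed, which limits the double positive cells as a model of all mural cells.

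In brain capillaries, neighbouring EC are joined by tight junctions, which close the space between cells and underlie the blood-brain barrier. Claudins form the strands of the junction, occludin and tricellulin are MARVEL-domain proteins that sit in the strands and where 3 cells meet, zonula occludens proteins tie the strands to actin, and junctional adhesion molecules (JAMs) and ESAM are immunoglobulin-type adhesion proteins beside them. The comparison asked how much of each transcript was found in mural cells relative to whole microvessels.

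Among these genes, *Jam3* was higher in mural cells, by a ratio of 3.90, and *Marveld2* and *Ocln* were lower, at ratios of 0.419 and 0.614. The other 6 did not pass the test. *Cldn5* was the most abundant of the 9 in both groups, with mean levels of 602 and 489 FPKM in fragments and mural cells. A gene was called higher or lower in mural cells at an adjusted p under 0.05 in limma, with Benjamini-Hochberg adjustment over all genes tested, together with a ratio of mean FPKM above 2 or under 0.5. With these limits, 1 of the 9 genes was called higher (*Jam3*), against 6.43% of all genes tested, and 1 was called lower (*Marveld2*), against 10.1%. On the adjusted p alone, 3 of the 9 passed, against 22.4% of all genes. The libraries of both groups did not overlap for 5 of the 9 against 40.9% of all genes, with every mural library above in 2 (16.5% of all genes) and below in 3 (24.5%). The median ratio was 0.811 over the 9 genes and 0.943 over all genes tested. With 9 genes, nothing is read from these counts about the group as a whole. In bulk samples, fewer cells of a type and less RNA per cell cannot be told apart.

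**Figure D1:**
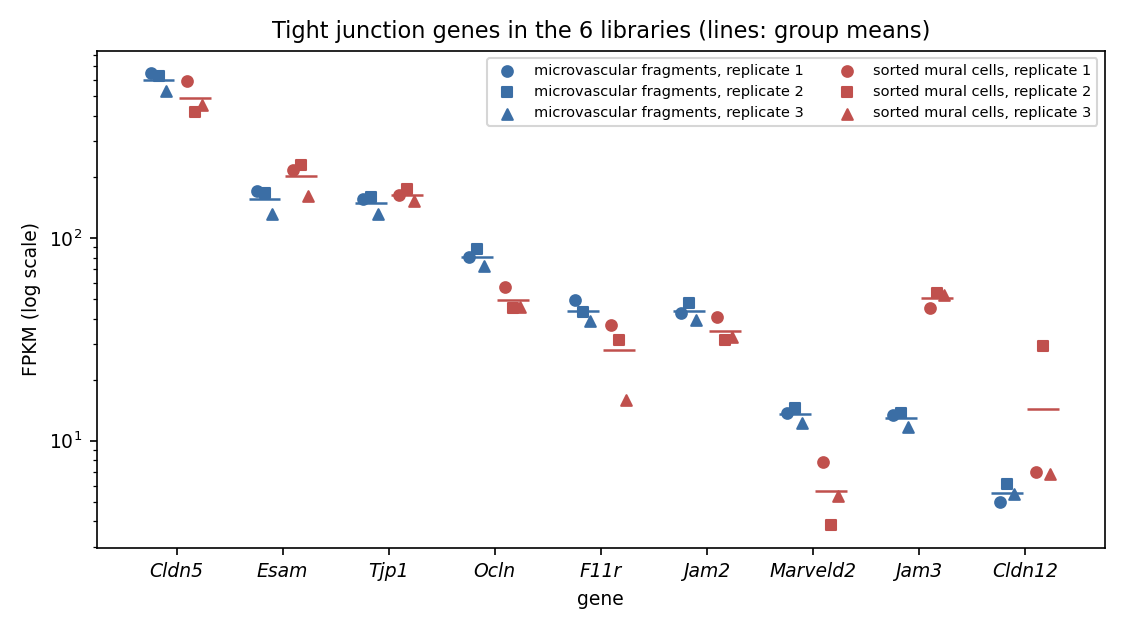
FPKM of each of the 9 genes (log axis) in the 3 microvascular fragment libraries and the 3 mural cell libraries; each point is 1 library and each line a group mean. The mural points of *Jam3* lie at 44.9 to 53.6 FPKM and its fragment points at 11.7 to 13.7 FPKM, whereas the points of *Cldn5* overlap.

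Depth and purity bear on every value. The deposited values were close to whole multiples of what 1 sequenced read pair is worth (97.7 to 98.9% of low values, tolerance 0.05), which gave approximately 5.41 to 5.99 M read pairs on protein-coding genes in the fragment libraries and 1.02 to 2.37 M in the mural libraries. In mural libraries 2 and 3, 1 read pair on a gene of 2000 bases was worth 0.753 and 0.700 FPKM. The 12 mural markers were all called higher in mural cells, against 6.43% of all genes tested. Their median ratio was 9.10, and they included *Pdgfrb* (ratio 9.81) and *Rgs5* (7.38). The list holds *Pdgfrb* and *Cspg4*, whose regulatory regions drive the reporters used for sorting. A rise of these genes was therefore largely set by the sort. The 15 EC markers stayed well above 0 in the sorted cells, with summed levels of 1374 to 1718 FPKM against 2026 to 2404 in fragments and a median level of 63.8% of that in fragments. Of these 15, none was higher in limma even at an unadjusted p under 0.05 and 2 were called lower (*Ly6c1* and *Sox17*), while 10 were lower on the adjusted p alone and *Pecam1* and *Cdh5* had ratios of 0.629 and 0.627. Of markers of other cells, all 8 for microglia, 5 of 6 for choroid plexus epithelium, 2 of 6 for platelets and 1 of 8 for the oligodendrocyte lineage were called lower. Of all genes tested, 10.1% were called lower. For fibroblasts 6 of 8 were called higher, against 6.43% of all genes. The choroid plexus genes *Kl* and *Kcne2* were under 1 FPKM in every mural library. They passed the filter on low values only through the fragment libraries, so they had to differ. None of the 8 astrocyte, 7 tested neuron or 3 tested erythroid markers was called in either direction by limma, and at an unadjusted p under 0.05 none was higher and 1, 3 and 0 were lower. Astrocyte markers were uneven among the sorted samples, with sums of 263, 224 and 809 FPKM in mural cells 1, 2 and 3. The part of EC RNA in the values below was not tested.

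Of the claudins, *Cldn5* is the main strand protein of brain endothelium. Its FPKM was 647, 628 and 532 in fragments 1, 2 and 3 and 596, 419 and 451 in mural cells 1, 2 and 3. The groups overlapped, since mural library 1 lay above fragment library 3. The mean was 602 ± 61.5 in fragments and 489 ± 94.3 in mural cells (SD, n = 3 each). On the log2(FPKM + 1) scale, which understates changes of low genes, the difference was -0.31 (standard error 0.17, 95% interval -0.70 to 0.08, adjusted p = 0.229 from limma). As a fold, this interval runs from 0.614 to 1.06. *Cldn5* is a gene of 1 exon and 1414 bases (NCBIM37, chromosome 16, 18776940 to 18778353), and its values rest on approximately 3044 to 3630 read pairs in fragments and 377 to 1304 in mural cells. It lay above 99.8% of all tested genes in fragments and above 99.7% in mural cells.

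*Cldn12*, a claudin without the PDZ-binding end by which other claudins hold zonula occludens proteins, was the lowest of the 9 in fragments, at 4.98, 6.13 and 5.44 FPKM. In mural cells it was 6.97, 29.2 and 6.86 FPKM. Every mural library lay above every fragment library, yet mural library 2 stood at 4.19 times the next mural library. The difference was 0.93 (standard error 0.52, 95% interval -0.28 to 2.14, adjusted p = 0.247 from limma), and without mural library 2 the ratio of means fell from 2.60 to 1.25. In that library 191 of the 14801 genes tested (1.29%) were at least 4-fold above both other mural libraries, against 3.28% in mural library 1 and 1.99% in mural library 3.

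Claudins other than these were scarce. Of 26 claudins in the files, 10 passed the filter on low values and 6 were listed at 0 in all libraries. *Cldn5* made up 91.5, 91.3 and 89.6% of the summed claudin FPKM in fragments and 89.1, 78.8 and 88.2% in mural cells. All mural libraries were below all fragment libraries, and the p of an exact two-sided permutation test was 0.1, the smallest that 3 against 3 allows. An entry named *Cldn25* in the annotation (31.1, 34.0 and 40.3 FPKM in fragments, 54.6, 72.9 and 44.6 in mural cells) was the only other claudin entry above 10 FPKM besides *Cldn12* in mural library 2. RefSeq lists it as *Cldnd1*, a gene only distantly related to claudins. Without it, a choice made after seeing the data, *Cldn5* made up 95.7, 96.1 and 96.1% in fragments and 97.0, 91.4 and 96.7% in mural cells, with overlap (exact two-sided permutation test, p = 1).

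The MARVEL-domain proteins were both lower in mural cells. *Ocln* (occludin) had an FPKM of 80.4, 88.2 and 72.5 in fragments and 57.4, 45.2 and 45.4 in mural cells. All mural libraries lay below all fragment libraries. The difference was -0.70 (standard error 0.14, 95% interval -1.03 to -0.36, adjusted p = 0.0123 from limma), with a ratio of 0.614 that does not reach the 2-fold limit. When a library was left out, the adjusted p (limma) rose to 0.0572 without fragment library 1 and 0.0631 without fragment library 2.

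*Marveld2*, which encodes tricellulin at the corners of 3 cells, was at 13.7, 14.6 and 12.2 FPKM in fragments and at 7.81, 3.83 and 5.32 FPKM in mural cells. Every mural library was below every fragment library, and the fall was -1.16 on the log2 scale (standard error 0.27, 95% interval -1.79 to -0.54, adjusted p = 0.0191 from limma). The mural values rest on few reads, approximately 40, 8 and 12 read pairs, against 162 to 181 in fragments. Leaving out fragment library 1, 2 or 3 gave adjusted p-values from limma of 0.0785, 0.0819 and 0.0630, so this call was lost without any one of them. Relative to EC markers, the ratio of *Ocln* lay above that of 5 of the 15 and the ratio of *Marveld2* above that of 1 of the 15.

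*Ocln* and *Marveld2* are neighbours on the minus strand of chromosome 13 (NCBIM37, 101266462 to 101322673 and 101365912 to 101386926), 43238 bases apart with 1 annotated gene between them. Their promoters and that of *Cldn5* are shown because those genes carry the contrast between a strand protein with overlapping levels and 2 neighbouring genes with lower levels in mural cells. The windows are the 250 bases before a RefSeq transcript start in the GRCm38.p6 assembly, written in the direction of transcription, and capitals mark matches on either strand to the ETS core GGAAG, to the E-box CAGGTG bound by Snail and ZEB repressors and to the GC box GGGCGG.
Cldn5 (GRCm38.p6, chr16:18776597-18776846, plus strand): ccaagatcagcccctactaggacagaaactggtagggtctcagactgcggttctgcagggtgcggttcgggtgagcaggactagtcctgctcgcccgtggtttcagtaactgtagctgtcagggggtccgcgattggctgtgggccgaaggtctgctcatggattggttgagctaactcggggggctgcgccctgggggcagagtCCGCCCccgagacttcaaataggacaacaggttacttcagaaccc
Ocln (GRCm38.p6, chr13:100552719-100552968, minus strand): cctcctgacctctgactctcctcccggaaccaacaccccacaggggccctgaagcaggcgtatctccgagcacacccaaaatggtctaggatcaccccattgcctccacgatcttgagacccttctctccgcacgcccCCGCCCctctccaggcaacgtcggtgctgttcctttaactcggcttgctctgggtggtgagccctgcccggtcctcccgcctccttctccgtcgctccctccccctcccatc
Marveld2 (GRCm38.p6, chr13:100616972-100617221, minus strand): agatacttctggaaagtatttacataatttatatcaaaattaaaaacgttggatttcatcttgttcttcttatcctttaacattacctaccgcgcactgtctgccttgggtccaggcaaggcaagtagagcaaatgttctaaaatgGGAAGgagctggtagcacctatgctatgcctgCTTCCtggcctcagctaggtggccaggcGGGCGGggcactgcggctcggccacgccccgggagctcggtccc
No match overlapped another. The window of *Cldn5* and the one shown of *Ocln* hold 1 GC box and neither of the other motifs, and that of *Marveld2* holds 2 ETS cores and 1 GC box. *Ocln* has a second RefSeq start, whose window (chr13:100552499-100552748) holds 2 E-boxes and 1 GC box. The second window of *Marveld2* holds the same motif counts as the first. Of 32851 promoter windows of the same length, 64.1% hold the ETS core, 17.2% the E-box and 32.7% the GC box. RefSeq windows were matched for 6 of the 9 genes, 10 windows in all, and not for *Jam2*, *Jam3* and *Esam*. These matches describe letters and no factor's binding was measured.

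The scaffold gene *Tjp1* encodes ZO-1, which ties claudins and JAMs to the actin skeleton. Its FPKM was 155, 159 and 132 in fragments and 162, 174 and 152 in mural cells. The libraries overlapped, and the difference was 0.13 (standard error 0.12, 95% interval -0.15 to 0.41, adjusted p = 0.486 from limma). With approximately 813 to 4885 read pairs per library, it was measured more deeply than any other of the 9 in each library.

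The JAM family gave the only gene of the 9 called higher, *Jam3*. The paper already lists it in its catalogue of mural cell-enriched genes, which was built in part from these same samples. *Jam3* (JAM-C, an adhesion molecule that also binds JAM-B) was at 13.4, 13.7 and 11.7 FPKM in fragments and at 44.9, 53.6 and 52.5 FPKM in mural cells. The gene lies on the minus strand of chromosome 9 (NCBIM37, 26904969 to 26963003), and no exon of another annotated gene overlaps an exon of any of the 9. The groups were far apart, with the lowest mural library above the highest fragment library. The means were 12.9 ± 1.07 and 50.3 ± 4.74 (SD, n = 3 each). The difference was 1.88 (standard error 0.14, 95% interval 1.55 to 2.22, adjusted p = 2.1e-04 from limma). When each library was left out in turn, the ratio lay between 3.72 and 4.11 and the call was kept in all 6 cases. *Jam3* moved from above 50.1% of all tested genes in fragments to above 86.9% in mural cells. Its ratio was above those of all 15 EC markers and below those of all 12 mural markers, of which the lowest was 6.47. Of the 8 fibroblast markers, 6 were also called higher, with summed levels of 107 to 119 FPKM in fragments and 612 to 794 in mural cells. The highest in mural cells were *Col1a2*, *Col3a1* and *Col1a1* (means of 221, 213 and 111 FPKM). The paper's catalogue also lists *Col1a2* and *Col3a1*. *Dcn*, *Lum* and *Foxc1* (ratios of 7.33, 6.17 and 2.33), which the catalogue does not list, were called higher too. *Pdgfra* and *Slc6a13* (ratios of 1.59 and 2.19) were not called. The part of fibroblast RNA in the *Jam3* value was not tested.

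**Figure D2:**
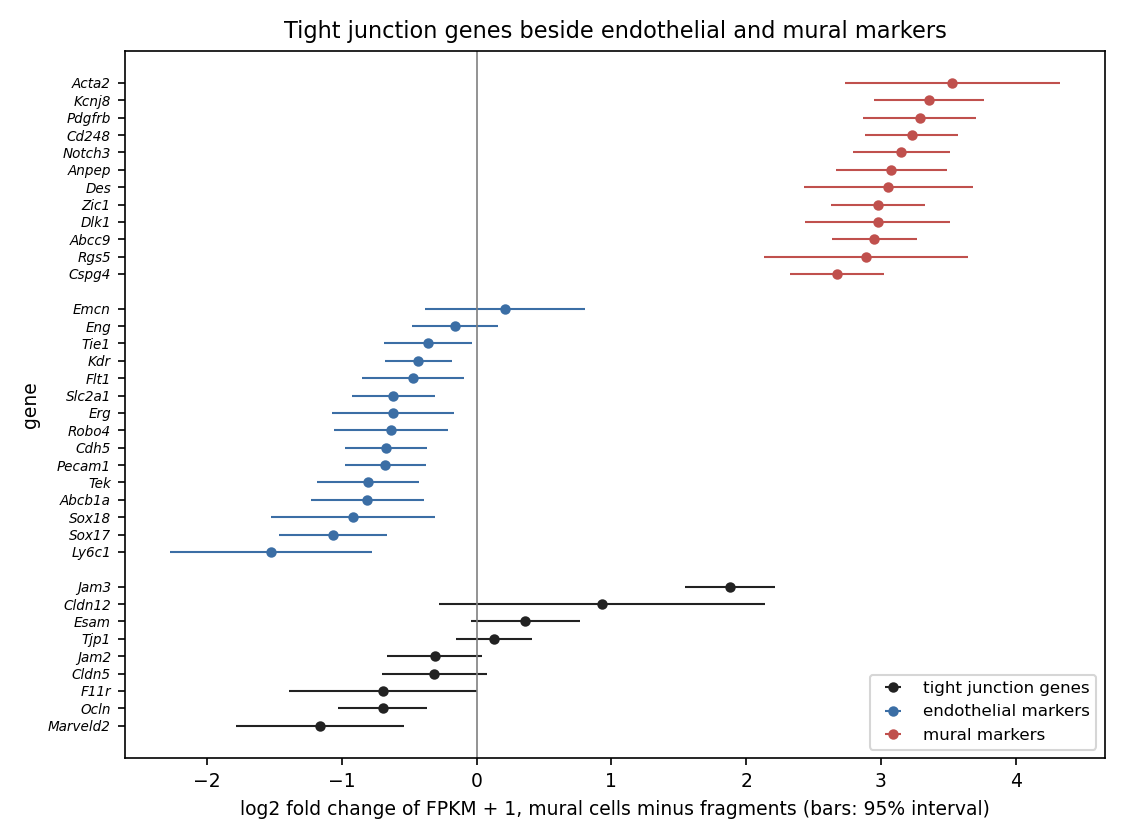
Difference of log2(FPKM + 1), mural cells minus fragments, with 95% intervals from limma, where 0 is no difference. The rows are the 9 genes and, in other colours, the 15 EC markers and the 12 mural markers. Among the 9 genes, the interval of *Jam3* (1.55 to 2.22) lies above 0, those of *Ocln* and *Marveld2* lie below 0 and the other 6 include 0.

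*F11r* (JAM-A), a JAM of endothelium and platelets, had an FPKM of 49.6, 43.0 and 38.7 in fragments and 37.3, 31.3 and 15.9 in mural cells. Every mural library was lower than every fragment library, but the spread of the mural libraries was wide. The difference was -0.69 (standard error 0.30, 95% interval -1.39 to 0.01, adjusted p = 0.146 from limma), and without mural library 3, the lowest, the ratio was 0.783 in place of 0.643. The platelet markers summed to 51.6 to 61.0 FPKM in fragments and 9.29 to 9.84 in mural cells. The largest part in fragments was *Pf4*, at 22.8, 45.8 and 42.0 FPKM. Of the 6 platelet markers, 2 (*Pf4* and *Itga2b*) were called lower, while *Gp1ba*, *Gp9*, *Ppbp* and *Treml1* overlapped between groups. The part of platelet RNA in the *F11r* value was not tested.

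*Jam2* (JAM-B) was at 42.7, 47.9 and 39.5 FPKM in fragments and 40.8, 31.2 and 32.6 in mural cells. The groups overlapped, since mural library 1 was above fragment library 3, and the difference was -0.31 (standard error 0.15, 95% interval -0.66 to 0.04, adjusted p = 0.187 from limma). *Esam*, an adhesion molecule of EC and platelets, was at 170, 166 and 131 FPKM in fragments and 217, 228 and 160 in mural cells. These also overlapped, with a difference of 0.36 (standard error 0.17, 95% interval -0.04 to 0.77, adjusted p = 0.183 from limma). Its ratio, 1.29, was above that of all 15 EC markers.

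As parts of the summed FPKM of *F11r*, *Jam2*, *Jam3* and *Esam*, the 4 genes shifted against each other. *Jam3* made up 4.85, 5.05 and 5.29% in fragments and 13.2, 15.6 and 20.1% in mural cells. *F11r* went from 18.0, 15.9 and 17.5% to 11, 9.09 and 6.07%. *Jam2* went from 15.5, 17.7 and 17.9% to 12, 9.08 and 12.5%, although its FPKM overlapped between groups. For these 3 genes the groups did not overlap, and exact two-sided permutation tests gave p = 0.1 for each, the smallest that 3 against 3 allows (0.133 after adjustment over 4 shares). *Esam* held 59.4 to 61.7% in fragments and 61.4 to 66.3% in mural cells, with overlap (exact two-sided permutation test, p = 0.3). The 4 shares add up to the whole, so they are not independent, and a rise of *Jam3* lowers the others. The share of all genes without overlap on this measure was not computed, and in FPKM alone it was 40.9%. Nothing is read from the number of genes whose shares separated.

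**Figure D3:**
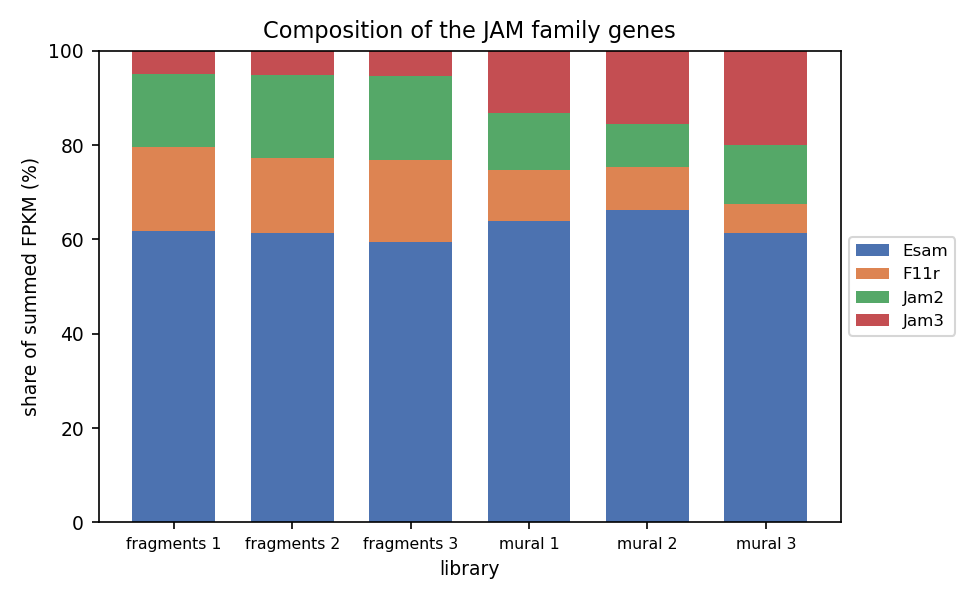
Share of *F11r*, *Jam2*, *Jam3* and *Esam* in their summed FPKM (percent, vertical axis from 0 to 100) in each of the 6 libraries, as stacked bars. The *Jam3* share is 4.85 to 5.29% in fragments and 13.2 to 20.1% in mural cells.

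Levels were also read against *Cldn5* of the same library, which does not depend on scaling between libraries. *Jam3* was at 2.06, 2.18 and 2.2% of *Cldn5* in fragments and 7.53, 12.8 and 11.7% in mural cells. *Esam* was at 24.7 to 26.5% and 35.6 to 54.4%, and *Tjp1* at 24.0 to 25.3% and 27.2 to 41.5%, both higher in all mural libraries. *Cldn12* was also higher in all mural libraries, whereas *Ocln* (12.4 to 14.1% and 9.64 to 10.8%) and *Marveld2* (2.12 to 2.32% and 0.914 to 1.31%) were lower in all of them. For these 6 genes an exact two-sided permutation test of the log2 difference gave p = 0.1, the smallest possible, and 0.133 after adjustment over 8 genes. The share of all genes without overlap on this measure was not computed, and in FPKM alone it was 40.9%. *Cldn5* itself had a ratio of 0.811, which raises the mural values of genes read against it. In FPKM, the libraries of *Esam* and *Tjp1* overlapped. Nothing is therefore read from the number of genes that separated. *Jam2* kept 6.59 to 7.64% of *Cldn5* in fragments and 6.85 to 7.45% in mural cells (p = 1), and *F11r* overlapped at 6.85 to 7.66% and 3.52 to 7.47% (p = 0.3, exact permutation tests).

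**Figure D4:**
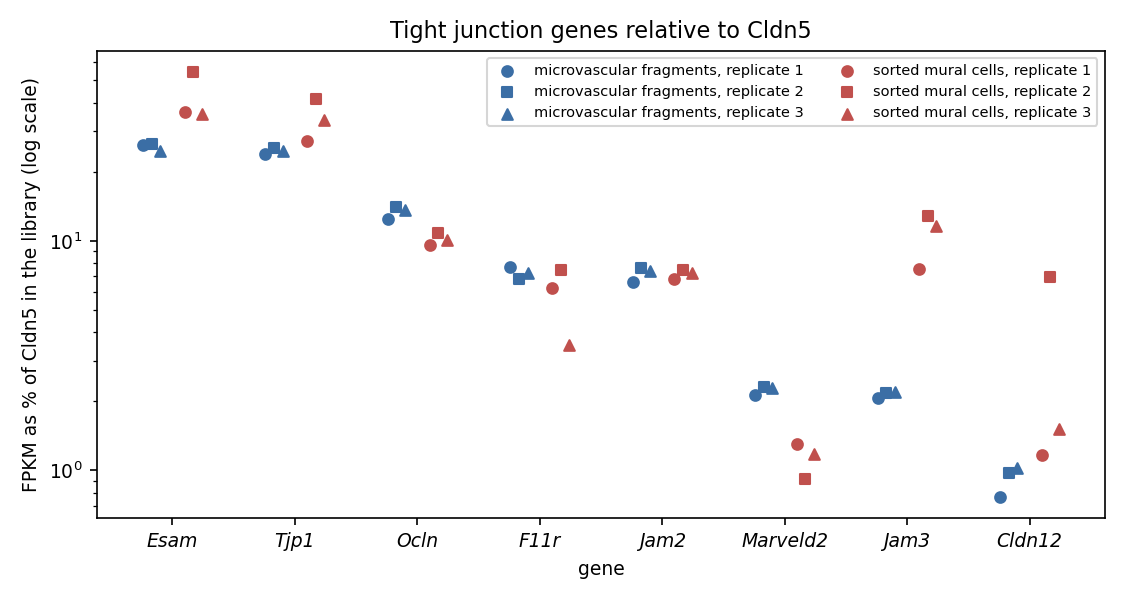
FPKM of each of the other 8 genes as a percent of *Cldn5* in the same library (log axis), with 1 point per library. *Jam3* separates most, from 2.06 to 2.2% in fragments to 7.53 to 12.8% in mural cells.

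The order of mean levels in fragments was *Cldn5*, *Esam*, *Tjp1*, *Ocln*, *F11r*, *Jam2*, *Marveld2*, *Jam3* and *Cldn12*, in which the neighbours *Esam* and *Tjp1*, *F11r* and *Jam2*, and *Marveld2* and *Jam3* overlapped between libraries. In mural cells it was *Cldn5*, *Esam*, *Tjp1*, *Jam3*, *Ocln*, *Jam2*, *F11r*, *Cldn12* and *Marveld2*, in which *Esam* and *Tjp1*, *Jam3* and *Ocln*, and all neighbours from *Jam2* on overlapped. Overlap here is of ranges across libraries. Within each library, *Marveld2* was above *Jam3* in all 3 fragment libraries, and *Esam* above *Tjp1* and *F11r* above *Cldn12* in all 3 mural libraries. The other overlapping neighbours kept their order in only 1 or 2 of 3 libraries. The highest mean was 109 times the lowest in fragments and 86.4 times in mural cells.

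For other tight junction genes, a list of 69 was set up (other claudins, MARVEL proteins and angulins, plaque scaffold proteins, nectins and relatives of the JAMs), of which 61 were in the files and 40 were tested. Of these 40, 1 was called higher (against 6.43% of all genes tested) and 4 were called lower (against 10.1%), and on the adjusted p alone 6 were higher (against 9.34% of all genes) and 5 lower (against 13.0%). The median ratio was 0.924. *Marveld1*, a MARVEL protein related to occludin, was at 14.1, 16.5 and 14.0 FPKM in fragments and 42.0, 50.8 and 59.5 in mural cells, without overlap, a difference of 1.70 (standard error 0.17, adjusted p = 5.5e-04 from limma). It thus rose while *Ocln* and *Marveld2*, its relatives, were lower. *Marveld1* is also in the paper's catalogue of mural cell-enriched genes. *Amotl2* was also called higher without fragment library 1 or mural library 1, which gave 2 genes in place of 1.

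The 4 genes called lower were all under 1 FPKM in every mural library and passed the filter on low values only through the 3 fragment libraries, the group where they are higher, so genes with this pattern had to differ and their number is no support for a direction of the list. Without any 1 of these libraries they are not tested. *Pvrl4* (nectin-4) was at 3.09, 4.23 and 3.83 FPKM in fragments and listed at 0 in all mural libraries (adjusted p = 0.00125 from limma), and *Ildr1* (angulin-2) at 2.27, 1.57 and 1.17 FPKM and again at 0 (adjusted p = 0.0133 from limma). *Cldn2*, the claudin of choroid plexus epithelium, was at 5.70, 3.08 and 1.66 FPKM in fragments and at 0.595, 0 and 0 in mural cells (adjusted p = 0.0186 from limma). Choroid plexus markers were likewise highest in fragment library 1 and lowest in fragment library 3, with summed levels of 1439, 918 and 675 FPKM, and were at 208 to 253 FPKM in mural cells, and their part was not tested. *Cldn22* was at 1.64, 1.48 and 2.16 FPKM in fragments and 0.714, 0 and 0 in mural cells (adjusted p = 0.0392 from limma). At the depth of mural libraries 2 and 3, a level of 1 FPKM is close to 1 or 2 read pairs on a gene of 2000 bases.

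Among the more abundant genes of the list, the angulin *Lsr*, which recruits tricellulin to cell corners, was at 102 to 130 FPKM in fragments and 63.5 to 86.6 in mural cells, a ratio of 0.640 (adjusted p = 0.0222 from limma). *Ildr2*, another angulin, had a ratio of 0.746 (adjusted p = 0.103 from limma). Of the 21 scaffold genes tested, none was called at 2-fold by limma. On the adjusted p alone 3 were higher, against 9.34% of all genes. At an unadjusted p under 0.05 in limma, 5 were higher and 2 lower, and the share of all genes at that limit is not given. Nothing is read from these counts about the scaffold genes as a group. The 3 past the adjusted p were *Amotl1* (ratio 1.84) and *Amotl2* (1.91), angiomotin-like proteins of junctions and actin, and the multi-PDZ protein *Mpdz* (1.53). *Mpdz* was named after its values were seen. *Mllt4* (afadin) had a ratio of 0.647 with overlapping libraries (adjusted p = 0.138 from limma). Of the nectins, *Pvrl1* was at 9.94 to 10.9 FPKM in fragments and 17.7 to 24.3 in mural cells (adjusted p = 0.0164 from limma), whereas *Pvrl2* and *Pvrl3* had ratios of 1.08 and 1.57 and did not pass. The entry *Cldn25* also passed the adjusted p (0.0496 from limma), and *Cldn11* and *Cldn1*, at means under 5 FPKM in both groups, did not.

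The genes whose levels over the 6 libraries were most like those of 4 members, by Pearson's r of log2(FPKM + 1), are given as a description. Both groups are in these 6 points, and depth differs between them. For *Cldn5* they were *Ccdc114* and *Polb* (r = 0.998 for both) and *Supt5h* (0.992). *Jam3* was most like *Mmp14*, *Ppp1r14a* and *Ckap4* (r from 0.9994 to 0.9997), *Marveld2* like *Mmrn2*, *Efr3b* and *Kif24* (0.997 to 0.998), and *Ocln* like *Pdgfd*, *Tek* and RP24-370C21.2 (0.995 to 0.996).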

How the data were processed

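Per the labels and the methods, RNA of 3 mural cell and 3 microvascular fragment samples was made into libraries with a stranded total RNA kit and run together in 1 lane. Reads were mapped by the authors to NCBIM37 with TopHat2 2.0.4, stripped of duplicates with Picard 1.92, and the authors deposited 1 FPKM value per gene and library, computed with Cufflinks 2.2.1. The scaling between libraries and the strand setting are not given in the sources used here, and removal of duplicates lowers the values of abundant genes more than those of scarce ones. Symbols came from the GENCODE annotation of NCBIM37 (33116 of 33460 genes); 9 identifiers listed more than once held identical values and were kept once.

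The 14801 genes that reached an FPKM of 1 in 3 or more libraries were tested on log2(FPKM + 1) with limma 3.58.1 in R 4.3.3 (intensity trend, no block, Benjamini-Hochberg). The script was tested on simulated data. Shares and levels relative to *Cldn5* were compared with exact permutation tests in Python 3.11.15 (pandas 2.3.3, NumPy 2.4.6, SciPy 1.17.1). Read pairs per gene were recovered approximately, from the longest transcript. P-values measure the spread between 3 samples per group. The genes and marker lists were chosen with earlier results of these data known. Named genes are the 9 members, reference genes, genes of the wider list called higher or lower with the 3 most abundant of each of its groups, and the genes most alike. The fit was repeated with the replicate number as a block, without a trend, with quantile or median-ratio scaling, with 0.1 as pseudocount, without a filter or with an FPKM of 5 as its minimum, at an adjusted p under 0.01 and without each library in turn. RefSeq promoter windows (GRCm38.p6) were matched by symbol.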

Additional observations from a re-analysis of the deposited data

How the results depend on the processing

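Across the pseudocount, scaling, trend, filter and block alternatives, *Jam3*, *Ocln* and *Marveld2* stayed past an adjusted p of 0.05 in limma with the same sign, and none of the other 6 genes passed. The log2 difference of each of the 9 genes kept its sign under all alternatives run. When each library was left out in turn, the log2 difference ranged from -0.81 to -0.63 for *Ocln* and from -1.39 to -0.95 for *Marveld2*, and the adjusted p (limma) was under 0.05 in 4 and in 3 of the 6 cases. Over all genes, the number called lower (1493) became 948 with a filter at an FPKM of 5 and 845 at an adjusted p under 0.01, and ranged from 607 to 1733 when a library was left out. Of the 1493, 501 were under 1 FPKM in all mural libraries and are by construction not tested without any 1 fragment library. Higher calls were 38.9% of all calls and 51.7% after quantile normalization, which moved the median log2 difference of all genes from -0.12 to -0.01.

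In the wider list, 2 genes were called higher after quantile normalization, and 1 to 2 when a library was left out. The 4 called lower became 7 without a filter, 2 after quantile normalization, 1 at an adjusted p under 0.01 and 0 with the filter at an FPKM of 5, where 27 were tested with limma and 5 were lower at an unadjusted p under 0.05. Leaving out a library gave 0 to 4 calls. The 0 (limma; 1, 1 and 4 genes lower at an unadjusted p under 0.05) came without fragment library 1, 2 or 3, where the filter leaves all 4 genes untested, so it says nothing of their stability. The filter at an FPKM of 5 removes them too. The cause of the other changes was not tested.

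The labels number the samples 1 to 3 in both groups without saying that a number marks a brain. Deviations of samples with the same number correlated at r = 0.08, 0.02 and 0.05, and every sample correlated best with its own number. These correlations are small. They are also not independent, since deviations from the mean of 3 samples add up to 0 in each group. They therefore cannot decide whether a number marks a brain. With the replicate block, 900 genes were called higher and 1344 lower, and adjusted p-values (limma) were 0.00163 for *Jam3*, 0.0247 for *Ocln* and 0.0380 for *Marveld2*. The depth of mural libraries 2 and 3 limits what can be said of genes near 1 FPKM.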
